A study of Mus musculus with 8 samples.

Results

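The mechanical stress genes of the cardiomyocyte are taken here as 10 genes: Ankrd1, Ankrd2, Ankrd23, Xirp1, Xirp2, Csrp3, Rcan1, Flnc, Nrap and Synpo2l. They were found by symbol among 55487 gene identifiers of a count table, and all 10 were among the 17636 genes with enough counts to be tested. The table holds RNA from mouse heart in 4 groups of 2 libraries: Set7KO given isoproterenol, WT given isoproterenol, Set7KO given saline and WT given saline. Set7KO mice lack the lysine methyltransferase Set7, encoded by Setd7, in all tissues and came from crosses of heterozygous animals. Isoproterenol, a beta-adrenergic agonist that drives the heart to beat faster and harder, was given under the skin at 60 mg/kg for 14 days, and saline was given over the same time. The labels name neither strain, age nor sex. Nor do they say that every library is from its own mouse, so the p-values reflect how far these samples spread, which can include technical spread.

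These genes encode proteins that sit where a cardiomyocyte feels load. The Z-disc anchors the thin filaments of neighbouring sarcomeres, the spring region of titin carries passive tension, and the intercalated disc passes force from cell to cell. Ankyrin repeat proteins bind titin and can also enter the nucleus, Xin proteins and filamin C bind actin at the discs, and calcineurin links calcium signals to NFAT and MEF2 transcription factors. In rodents, several of these genes are known to be expressed more when the heart is overloaded.

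The DNA before the start of the genes is shown for the members on which the results turn: Ankrd1, the member whose levels set the treatments apart; Ankrd23, its relative, whose isoproterenol levels lay below 3 of the 4 saline libraries; and Xirp2, the member whose treatment difference had opposite signs in the genotypes. The 250 bases before each start annotated by RefSeq in GRCm38.p6 were searched on both strands for 5 motifs that were picked after the sequences and the levels had been seen. A promoter sequence was at hand for 9 of the 10 members, 14 sequences in all because some members have more than 1 annotated start; the counts and shares that follow are of single promoter sequences. Capitals mark a match. The MCAT motif CATTCC, the core that TEAD factors bind, matched in 3 of these 14 sequences and in 12.6% of 32851 mouse promoters. The AP-1 motif TGANTCA, the site of Fos and Jun dimers, matched in 2 sequences and in 6.75% of promoters, and the MEF2 site matched in 3 sequences, 2 of them of Synpo2l, and in 2.92%. The TATA box TATAAA matched in 1 sequence and in 12.4% of promoters, and the CArG box of serum response factor matched in 0 of the 14 and in 1.47%. A match describes these letters and was not tied to any level. Ankrd1 had 2 MCAT matches, each read here as the reverse complement, at -210 and nearer the start; only the 30 bases around each are printed, because GENCODE places this stretch inside an untranslated region of a longer transcript. They lie on the minus strand at chr19:36120037-36120066 and chr19:36119950-36119979.
Ankrd1 distal MCAT: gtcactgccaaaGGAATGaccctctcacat
Ankrd1 proximal MCAT: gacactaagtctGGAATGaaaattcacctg
Ankrd23 has 2 annotated starts, and the sequence before the second, on the minus strand at chr1:36535740-36535989, held an MCAT match at -120. The Xirp2 sequence, on the plus strand at chr2:67445752-67446001, held an AP-1 match at -107 and a MEF2 match at -74 (bases from the start).
Ankrd23 second start: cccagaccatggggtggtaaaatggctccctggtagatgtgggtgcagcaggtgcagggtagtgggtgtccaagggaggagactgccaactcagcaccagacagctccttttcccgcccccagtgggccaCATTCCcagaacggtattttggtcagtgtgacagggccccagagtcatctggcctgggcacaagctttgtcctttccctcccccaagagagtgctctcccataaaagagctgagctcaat
Xirp2: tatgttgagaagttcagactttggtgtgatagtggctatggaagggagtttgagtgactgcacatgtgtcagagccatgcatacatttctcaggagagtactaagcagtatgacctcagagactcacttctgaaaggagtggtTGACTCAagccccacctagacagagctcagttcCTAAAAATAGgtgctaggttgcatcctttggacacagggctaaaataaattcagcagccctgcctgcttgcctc

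The libraries held 27847069 to 51705705 counts, and 3 counts, taken as the floor of detection, correspond to 0.0598 to 0.112 CPM (counts scaled to a common library size with TMM factors). Intervals cover counting error and the spread of these libraries only, and the floor is a fixed count, not an estimate of error. Setd7 was at 3.79 to 5.70 CPM in the 4 Set7KO libraries and at 43.0 to 72.6 CPM in the 4 WT libraries, as the labels state. All 14 cardiomyocyte markers were detected in every library, with a summed level of 118309 to 190333 CPM. The 11 skeletal muscle markers other than Ckm summed to 25.5 to 117 CPM, and Myh2 was at 0 in 7 of the 8 libraries. Levels of high-GC genes relative to low-GC genes differed between the libraries. Tested genes were split into 5 classes of GC content, and class 5 (highest) minus class 1 (lowest) was taken relative to the average library. It stood at 0.19 and 0.64 (log2) in Set7KO isoproterenol and -1.08 and -0.78 in WT isoproterenol. In Set7KO saline it was 0.36 and -0.91, and in WT saline 0.55 and 0.86. Within WT this GC trend thus went with treatment, and its source was not tested. WT isoproterenol and Set7KO saline replicate 2 also lay together on the first principal component, which held 45.4% of the variance, at 58.6 to 67.3 against -71.7 to -19.0 for the other 5 libraries. Set7KO saline replicate 2 stood apart from its own group in other ways as well. Its neutrophil markers summed to 105 CPM, against 3.47 to 13.1 CPM in the other 7 libraries, and its erythroid markers to 10521 CPM, against 1254 to 4351 CPM. Its title carries the letter that the WT saline titles share, where Set7KO saline replicate 1 and each isoproterenol group have other letters, and the labels do not say what the letter stands for; its Setd7 level is one of the 4 at 3.79 to 5.70 CPM. Values fitted with offsets per library for GC content and length are therefore given beside many of the results. A result printed without such a value can still move with the offsets, and changes of sign among the members are listed at the end. The offsets were fitted to these same levels, so in WT they can also take out a treatment difference. WT saline replicate 1 stood apart in its 6 atrial markers, which summed to 2740 CPM, against 234 to 857 CPM in the other 7 libraries. The part of atrial tissue in the member values was not tested. In whole heart, fewer cardiomyocytes and less RNA per cardiomyocyte cannot be told apart.

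No member passed an adjusted p of 0.05 in any of the 7 contrasts tested with edgeR's quasi-likelihood test (isoproterenol against saline in each genotype and averaged, Set7KO against WT in each treatment and averaged, and the interaction). With isoproterenol averaged over genotypes 0.0113% of the 17636 genes passed as higher and 0.0397% as lower. At an unadjusted p of 0.05, 2 members were higher (Ankrd1 and Xirp2) and 3 were lower (Ankrd2, Ankrd23 and Synpo2l), where 4.5% and 4.9% of all genes were. The median log2 fold change over the 10 members was -0.19, against 0.02 over all genes tested. Levels per kilobase of exon, averaged over the 8 libraries, put Csrp3 first at 644 CPM per kb, followed by Ankrd1 at 564, Ankrd23 at 223, Nrap at 222, Flnc at 74.2, Xirp1 at 70.9, Rcan1 at 40.2, Synpo2l at 37.2, Xirp2 at 12.0 and Ankrd2 at 0.252. Among neighbours in this order, the library ranges did not overlap between Nrap and Flnc, Synpo2l and Xirp2, and Xirp2 and Ankrd2, and overlapped in the other 6 pairs. In both isoproterenol groups Ankrd1 ranked above Csrp3, and in both saline groups Csrp3 ranked above Ankrd1. In WT saline Ankrd23 also ranked above Ankrd1.

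**Figure D1:**
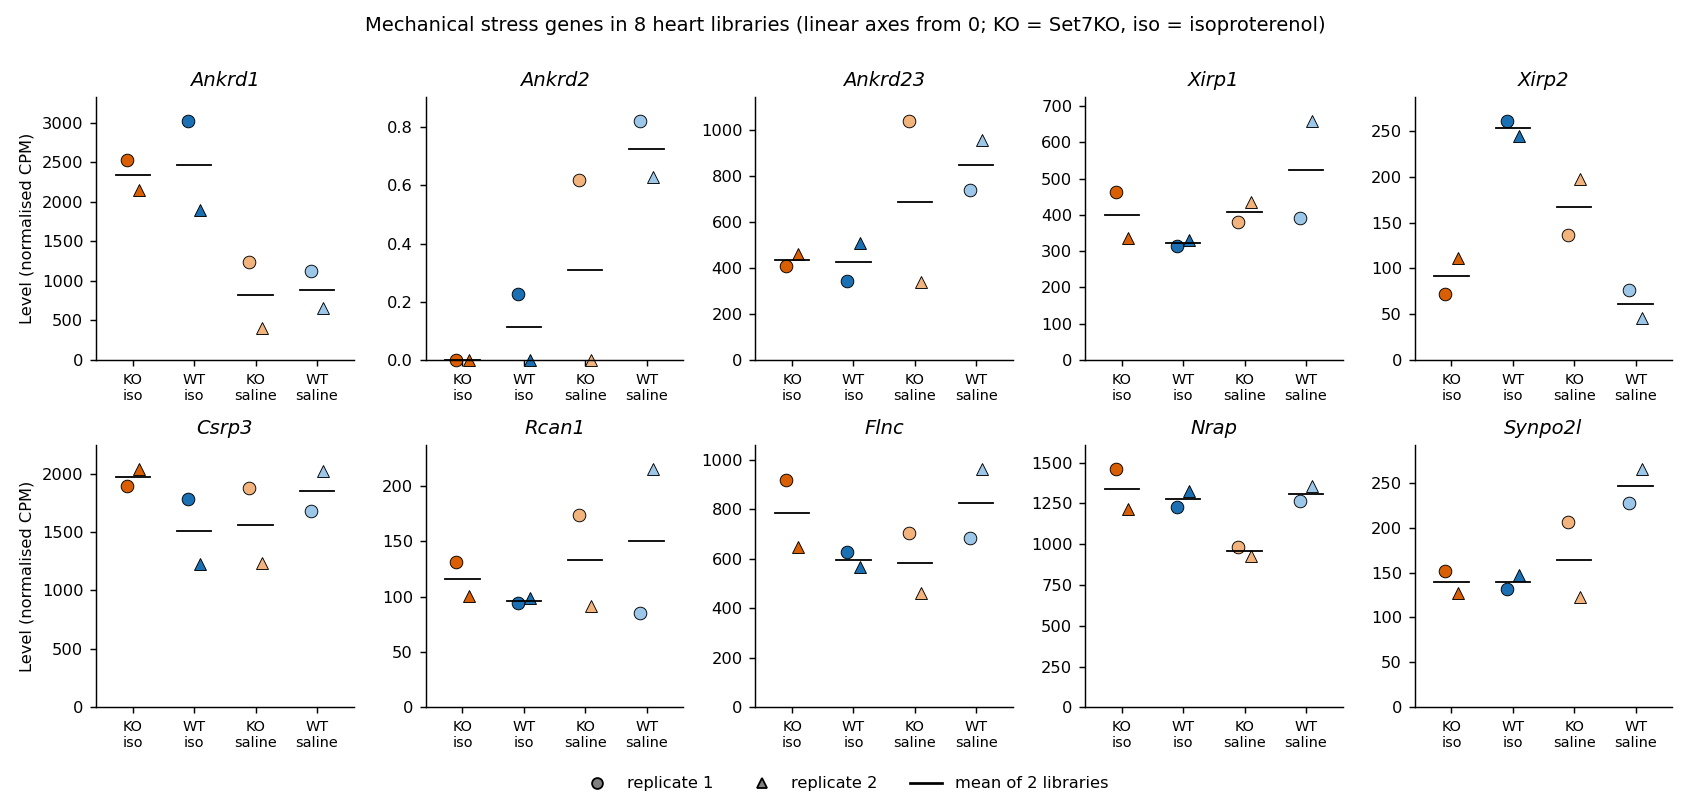
Level of each of the 10 members in each library (normalised CPM, linear axes from 0), with circles for replicate 1, triangles for replicate 2 and a line at the mean of the 2 libraries. Ankrd1 is the one member with every isoproterenol library above every saline library.

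The ankyrin repeat genes had fold changes of different sign. Ankrd1 (ENSMUSG00000024803, minus strand of chromosome 19, 36111961 to 36120099, GRCm38) encodes the cardiac ankyrin repeat protein, which binds the titin spring and shuttles to the nucleus. Its level was 2527 and 2147 CPM in Set7KO isoproterenol and 3024 and 1903 CPM in WT isoproterenol, against 1241 and 407 CPM in Set7KO saline and 1125 and 656 CPM in WT saline. The lowest isoproterenol library thus lay above the highest saline library, a pattern shown by 2.11% of all genes, and Ankrd1 was the one member to show it; no member showed the opposite pattern, against 2.01% of all genes. The mean was 2400 ± 489 CPM after isoproterenol and 857 ± 392 CPM after saline (SD, n = 4 libraries each). Averaged over genotypes Ankrd1 was 2.80-fold higher after isoproterenol, a log2 fold change of 1.49 ± 0.36 (SE; 95% interval 0.67 to 2.30), with adjusted p = 0.229 in edgeR's quasi-likelihood test. The log2 fold change was 1.50 ± 0.50 in Set7KO (adjusted p = 0.475, edgeR), where it was 2.52 without Set7KO saline replicate 1 (adjusted p = 0.0395, edgeR) and 0.92 without replicate 2. In WT it was 1.47 ± 0.50 (adjusted p = 0.110, edgeR). The Set7KO value minus the WT value was 0.04 with a 95% interval of -1.56 to 1.63, which spans large differences of either sign.

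Whether Ankrd1 passed the threshold depended on the fit. The averaged log2 fold change was positive in all 16 alternatives, from 1.08 to 1.99, and was 1.40 with GC and length offsets. It passed the threshold in 3 of them: 0.00967 with no filter on low counts in edgeR, 0.00169 in DESeq2, and 0.0446 in edgeR without Set7KO saline replicate 1 (adjusted p).

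Ankrd23 (ENSMUSG00000067653, minus strand of chromosome 1, 36530188 to 36536883) encodes a related protein of the titin spring, also called the diabetes-related ankyrin repeat protein. Its level was 411 and 460 CPM in Set7KO isoproterenol and 345 and 510 CPM in WT isoproterenol, against 1040 and 339 CPM in Set7KO saline and 740 and 957 CPM in WT saline. All 4 isoproterenol libraries lay below 3 of the saline libraries and above the other, Set7KO saline replicate 2. The averaged log2 fold change was -0.83 ± 0.33 (adjusted p = 0.470, edgeR), -0.57 with GC and length offsets and -0.31 without Set7KO saline replicate 1. In WT it was -0.99 ± 0.46 (adjusted p = 0.177, edgeR), and -0.34 with the offsets. In Set7KO it was -0.66 ± 0.46 (adjusted p = 0.665, edgeR), 0.36 without Set7KO saline replicate 1 and -1.25 without replicate 2.

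Ankrd2 (ENSMUSG00000025172, plus strand of chromosome 19, 42036000 to 42045110) encodes the family member of slow skeletal muscle. It had 0 counts in both Set7KO isoproterenol libraries, 10 and 0 counts in WT isoproterenol, 19 and 0 counts in Set7KO saline, and 22 and 19 counts in WT saline. The highest level, in WT saline replicate 1, was 0.821 CPM. Summed over the 11 skeletal muscle markers without Ckm, WT saline also had the highest levels, at 117 and 113 CPM, and Set7KO saline replicate 2, which had no Ankrd2 count, the lowest at 25.5 CPM; the part of other muscle in the Ankrd2 counts was not tested. Its counts are near the floor, so its fitted fold changes are no measure of size (averaged contrast adjusted p = 0.470, edgeR).

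Set against each other within a library, the Ankrd1 level per kilobase was a multiple of that of Ankrd23, at 5.74 and 4.36 in Set7KO isoproterenol and 8.19 and 3.49 in WT isoproterenol, against 1.11 and 1.12 in Set7KO saline and 1.42 and 0.640 in WT saline. The lowest ratio after isoproterenol was thus above the highest after saline. Ankrd1 is in GC class 2 and Ankrd23 in class 5, and the highest ratio was in the library with the most negative GC trend (-1.08). This ratio was chosen after the levels had been seen and carries no test. The genes whose log2 levels followed that of Ankrd1 most closely over the 8 libraries, of 7510 with a mean of at least 10 CPM, were Ppp1r21 (Pearson r = 0.984), Leprot (0.972), Col8a1 (0.967), Igfbp3 (0.957) and Emp1 (0.955). These are descriptions over libraries that share group, depth and GC trend.

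**Figure D2:**
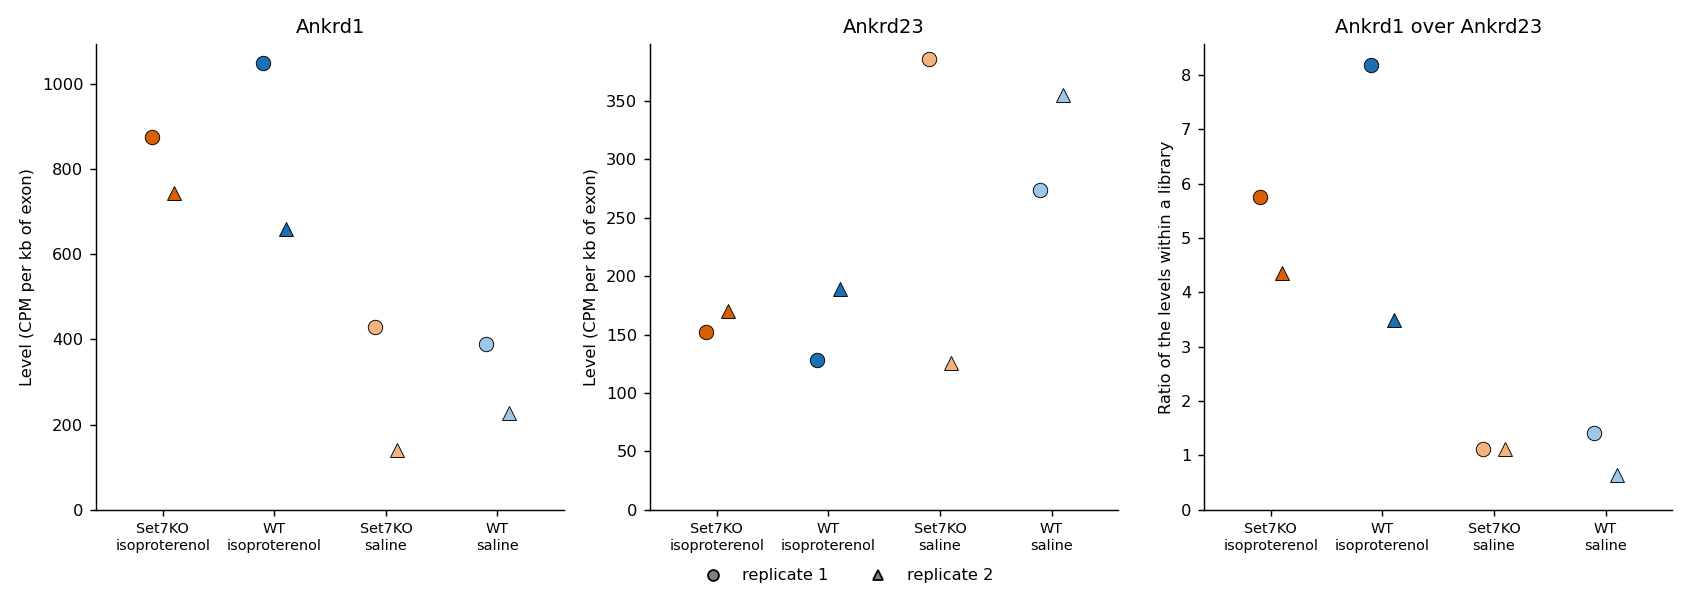
Ankrd1 and Ankrd23 levels (CPM per kb of exon) and their ratio within each library, by group, with circles for replicate 1 and triangles for replicate 2. The ratio lies between 3.49 and 8.19 in the isoproterenol libraries and between 0.640 and 1.42 in the saline libraries.

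Of the Xin pair, Xirp2 had opposite signs in the genotypes. Xirp2 (ENSMUSG00000027022, plus strand of chromosome 2, 67446002 to 67526614) encodes an actin-binding repeat protein of the intercalated disc and Z-disc. Its level was 71.8 and 111 CPM in Set7KO isoproterenol, 261 and 245 CPM in WT isoproterenol, 136 and 198 CPM in Set7KO saline, and 76.6 and 45.9 CPM in WT saline. In WT both isoproterenol libraries lay above both saline libraries, and in Set7KO both lay below. That pattern held in 11% of all genes and the opposite one in 7.58%.

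In WT Xirp2 was 4.13-fold higher after isoproterenol (log2 2.05 ± 0.34, adjusted p = 0.0941, edgeR), and in Set7KO the log2 fold change was -0.87 ± 0.33 (adjusted p = 0.502), or -0.57 without Set7KO saline replicate 2. The interaction, the isoproterenol effect in Set7KO minus that in WT, was -2.91 ± 0.47 (95% interval -3.99 to -1.83, adjusted p = 0.0876, edgeR). Set7KO against WT gave -1.47 ± 0.33 after isoproterenol (adjusted p = 0.229, edgeR) and 1.45 ± 0.33 after saline (adjusted p = 0.483), and -0.48 and 0.85 with GC and length offsets; these contrasts use the same libraries as the isoproterenol contrasts. Averaged over treatments the genotype difference was -0.01 (95% interval -0.54 to 0.52). With all libraries, none of these Xirp2 values passed the threshold in edgeR with the filter on low counts.

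Xirp2 levels were highest in the libraries with a negative GC trend. Its transcript is in GC class 1 (42.2%), and its 3 highest levels were in the 3 libraries with a negative trend, WT isoproterenol and Set7KO saline replicate 2. With GC and length offsets the interaction was -1.33 (adjusted p = 0.258, edgeR), the WT value was 0.98, a 1.98-fold difference, and the Set7KO value was -0.34. Without offsets the interaction passed the threshold with no filter (adjusted p = 0.00440, edgeR), in DESeq2 (1.57e-05) and without Set7KO saline replicate 1 (0.00689, edgeR). Among the genes most like Xirp2 over the 8 libraries were Supt16 (Pearson r = 0.997), Chd9 (0.984), Arhgap29 (0.980) and Htatsf1 (0.976). Their GC content was 42.7% to 46.4%, and that of the genes named as most like Ankrd1 was 45.3% to 52.5%. These too are descriptions and carry no test.

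**Figure D3:**
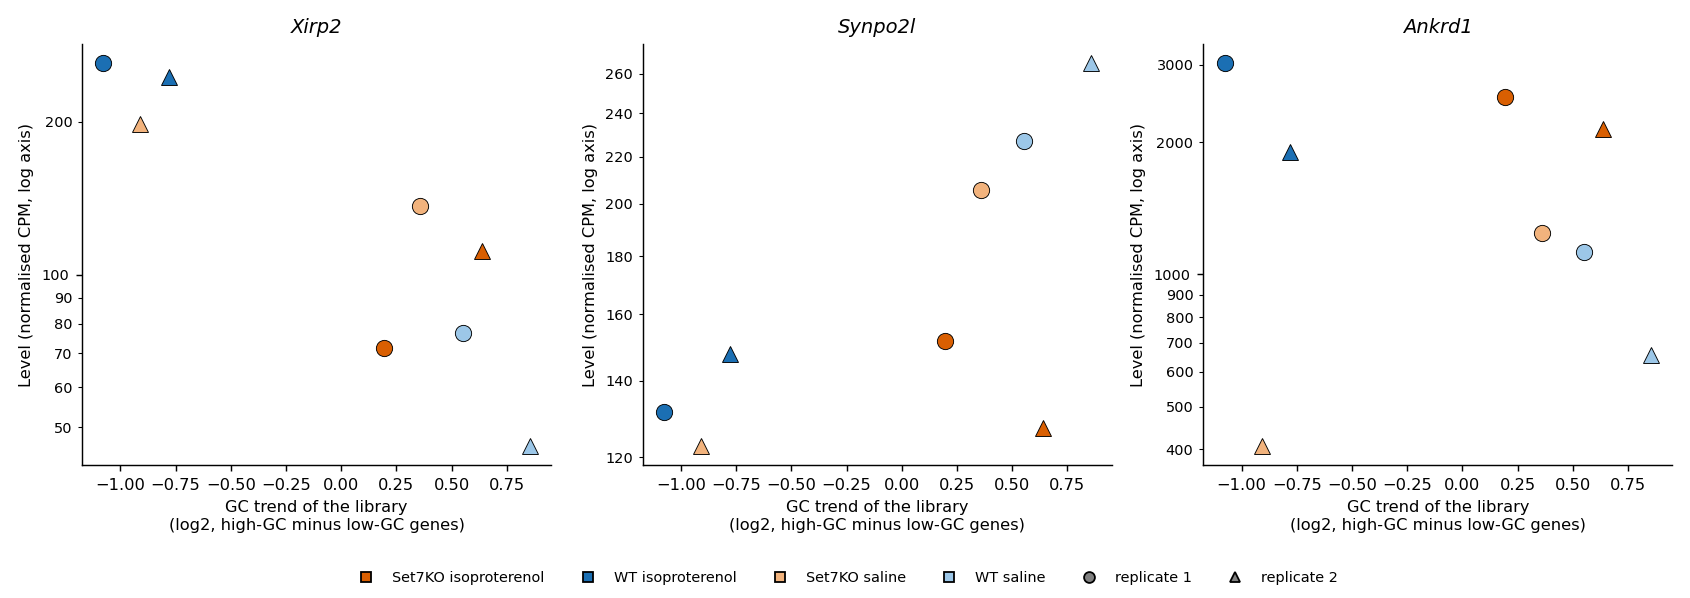
Levels of Xirp2, Synpo2l and Ankrd1 (normalised CPM, log axes) against the GC trend of each library (log2 difference of high-GC and low-GC genes, relative to the average library), coloured by group, with circles for replicate 1 and triangles for replicate 2. The 3 libraries with a negative trend hold the 3 highest Xirp2 levels, and for Ankrd1 they hold the highest level, 3024 CPM, and the lowest, 407 CPM.

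Xirp1 (ENSMUSG00000079243, minus strand of chromosome 9, 120013755 to 120023598) encodes the Xin protein that binds beta-catenin and N-cadherin complexes at the intercalated disc. Its level was 462 and 338 CPM in Set7KO isoproterenol and 315 and 330 CPM in WT isoproterenol, against 380 and 435 CPM in Set7KO saline and 391 and 659 CPM in WT saline. The treatments overlapped in Set7KO and did not in WT, where isoproterenol was lower. The WT log2 fold change was -0.70 ± 0.28 (adjusted p = 0.138, edgeR), but -0.02 with GC and length offsets and -0.31 without WT saline replicate 2. The interaction was 0.67 ± 0.40 (adjusted p = 0.268, edgeR) without offsets, -0.35 with them and 0.28 without WT saline replicate 2. Xirp2 per kilobase stood at 0.0757 and 0.161 of Xirp1 in Set7KO isoproterenol and at 0.404 and 0.361 in WT isoproterenol, against 0.175 and 0.221 in Set7KO saline and 0.0956 and 0.0340 in WT saline, a ratio also chosen after the levels had been seen. Xirp1 is in GC class 5 and Xirp2 in class 1.

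The LIM domain members did not separate the treatments over both genotypes. Csrp3 (ENSMUSG00000030470, chromosome 7, 48830398 to 48848033) encodes the muscle LIM protein of the Z-disc. It stood at 1889 and 2043 CPM in Set7KO isoproterenol and 1786 and 1225 CPM in WT isoproterenol, against 1878 and 1238 CPM in Set7KO saline and 1678 and 2022 CPM in WT saline. The treatments overlapped, with an averaged log2 fold change of 0.02 and a 95% interval of -0.42 to 0.46. By genotype it was -0.30 ± 0.27 in WT and 0.34 ± 0.27 in Set7KO. The interaction was 0.63 ± 0.38 (adjusted p = 0.273, edgeR), and 0.38 to 1.42 over the alternatives. Nrap (ENSMUSG00000049134, chromosome 19, 56320035 to 56390037) encodes the nebulin-related anchoring protein, which links actin filaments to the membrane at the intercalated disc. It stood at 1464 and 1216 CPM in Set7KO isoproterenol and 1231 and 1327 CPM in WT isoproterenol, against 985 and 930 CPM in Set7KO saline and 1264 and 1358 CPM in WT saline. Both Set7KO saline libraries were below the other 6. In Set7KO Nrap was 1.40-fold higher after isoproterenol (log2 0.48 ± 0.19, adjusted p = 0.502, edgeR), and 1.20-fold with GC and length offsets. Set7KO against WT after saline was -0.45 ± 0.19 (adjusted p = 0.483, edgeR), and -0.11 with the offsets.

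Flnc, Synpo2l and Rcan1 complete the list. Flnc (ENSMUSG00000068699, chromosome 6, 29433256 to 29461883), the muscle filamin that cross-links actin at the Z-disc, stood at 920 and 649 CPM in Set7KO isoproterenol and 629 and 566 CPM in WT isoproterenol, against 704 and 462 CPM in Set7KO saline and 685 and 965 CPM in WT saline. The treatments overlapped, and the averaged log2 fold change was -0.02 with a 95% interval of -0.49 to 0.45. Its interaction was 0.90 ± 0.41 (adjusted p = 0.177, edgeR) and -0.02 with GC and length offsets.

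Synpo2l (ENSMUSG00000039376, chromosome 14, 20658946 to 20668354), which encodes an actin-associated Z-disc protein of heart and skeletal muscle, stood at 152 and 127 CPM in Set7KO isoproterenol and 131 and 148 CPM in WT isoproterenol, against 206 and 122.7 CPM in Set7KO saline and 227 and 266 CPM in WT saline. The 4 isoproterenol libraries were below 3 of the saline libraries, and Set7KO saline replicate 2 was below them all. The averaged log2 fold change was -0.53 ± 0.19 (adjusted p = 0.435, edgeR), -0.31 with offsets and -0.32 without Set7KO saline replicate 1. In WT it was -0.82 ± 0.27 (adjusted p = 0.107, edgeR), and -0.15 with offsets, 1.77-fold against 1.11-fold lower.

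Rcan1 (ENSMUSG00000022951, chromosome 16, 92391953 to 92470867) encodes a calcineurin regulator, one form of which is itself induced by calcineurin and NFAT. It stood at 131 and 101 CPM in Set7KO isoproterenol and 93.9 and 98.6 CPM in WT isoproterenol, against 174 and 91.8 CPM in Set7KO saline and 85.4 and 216 CPM in WT saline. The 2 libraries within each saline group differed by more than the averaged treatment difference. The averaged log2 fold change was -0.42 with a 95% interval of -1.14 to 0.30. It was -0.03 without WT saline replicate 2 and -0.68 without WT saline replicate 1. The table holds 1 value per gene, so its isoforms from different starts were not analysed here.

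**Figure D4:**
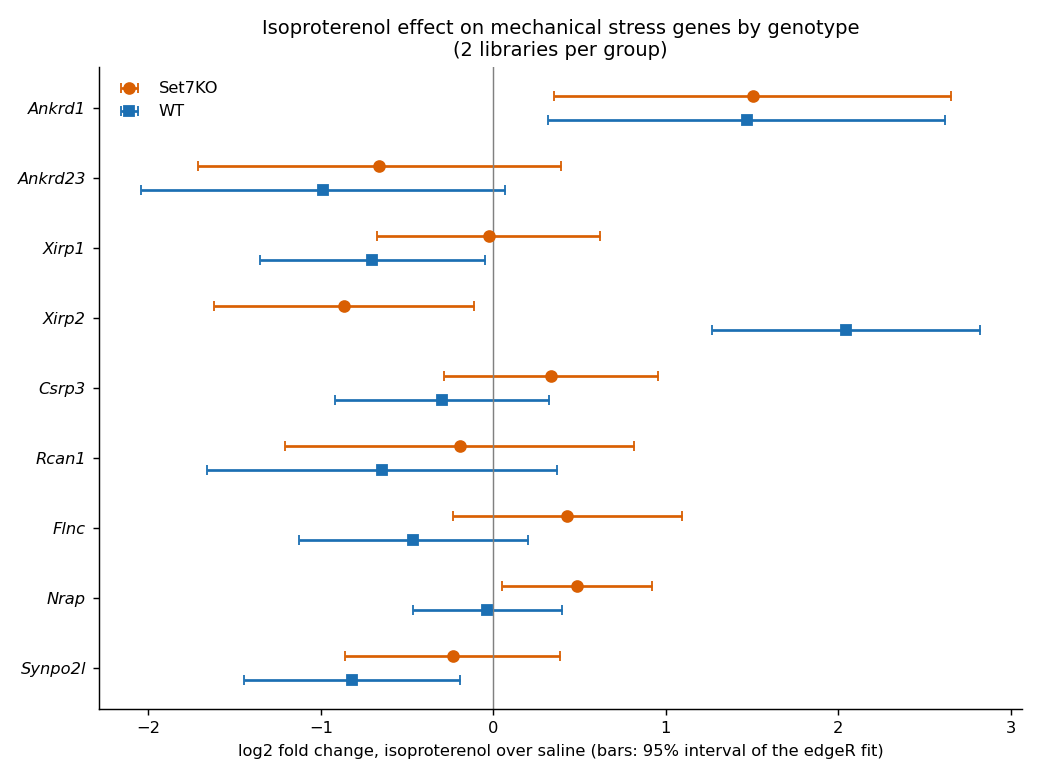
Isoproterenol over saline (log2 fold change with its 95% interval from edgeR) for 9 members, with Set7KO in orange circles and WT in blue squares; Ankrd2 is left out because its counts are near the floor. Ankrd1 is to the right of 0 in both genotypes, and Xirp2 is to the left in Set7KO (-0.87) and to the right in WT (2.05).

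No member separated the genotypes over both treatments. In WT, where 39.3% of all genes were higher after isoproterenol without overlap and 33.4% lower, 2 members were higher (Ankrd1 and Xirp2) and 5 lower (Ankrd2, Ankrd23, Xirp1, Flnc and Synpo2l). Marker levels of several cell types also differed in WT. The 14 cardiomyocyte markers summed to 118309 and 119849 CPM after isoproterenol, against 145231 and 190333 CPM after saline, and at an unadjusted p of 0.05 in edgeR 1 of them was higher and 5 were lower. At that p all 7 lymphocyte markers tested, 4 of 8 macrophage markers and 4 of 6 erythroid markers were lower. So were 3 of the 6 skeletal muscle markers tested and 1 of 6 atrial markers, while 2 of 8 fibroblast and 1 of 8 endothelial markers were higher. Ckm is in both the cardiomyocyte and the skeletal muscle list. The sums in WT were 1.53 to 2.56 CPM after isoproterenol against 9.29 to 12.4 CPM after saline for lymphocytes, where Ms4a1 was at 0 in both isoproterenol libraries, 193 to 219 against 407 to 491 CPM for macrophages, and 1254 to 1519 against 3768 to 4261 CPM for erythroid cells. In the averaged isoproterenol contrast, at the same p, 4.9% of all genes were lower and 4.5% higher. There 5 of the 6 erythroid, 6 of the 7 lymphocyte, 3 of the 8 macrophage and 3 of the 14 cardiomyocyte markers were lower. So were 3 of the 6 skeletal muscle markers tested and 1 of the 6 atrial markers. Of the fibroblast markers 3 of 8 were higher, and of the smooth muscle markers 2 of 7. The part of these cell types in the member values was not tested. In Set7KO 3 members were higher (Ankrd1, Csrp3 and Nrap), where 16% of all genes were, and 1 was lower (Xirp2), where 18.7% were. At an unadjusted p of 0.05 in edgeR, 2 members were higher in WT (18.5% of all genes) and 2 lower (13.3%), and 2 were higher in Set7KO (3.65%) and 1 lower (6.01%). Set7KO against WT averaged over treatments had 0 members at an unadjusted p of 0.05 in edgeR, where 0.987% of genes were higher and 0.578% lower. At that p all 6 erythroid markers, all 5 neutrophil markers tested and 2 of the 7 lymphocyte markers tested were higher. The neutrophil markers differed by treatment, with 5 higher in Set7KO after saline and 0 after isoproterenol. They summed to 105 CPM in Set7KO saline replicate 2, against at most 13.1 CPM in any other library. Averaged over treatments, 1 of the 6 atrial markers was lower, as was 1 of the 6 skeletal muscle markers tested. The single gene that passed the adjusted threshold was Setd7, or 0.00567% of those tested, and 0 members were without overlap, where 0.289% of genes were higher and 0.267% lower. After isoproterenol, Set7KO against WT had 4 members higher without overlap (Xirp1, Csrp3, Rcan1 and Flnc; 31.8% of all genes) and 1 lower (Xirp2; 36.3%). Of these only Xirp2 had an unadjusted p under 0.05 in edgeR, where 7.22% of all genes were higher and 12.7% lower, and 0.00567% passed the adjusted threshold. After saline, 1 member was higher without overlap (Xirp2; 19.6% of all genes) and 3 were lower (Ankrd2, Nrap and Synpo2l; 18.3%). Xirp2 (higher) and Nrap (lower) had an unadjusted p under 0.05, where 7.83% of all genes were higher and 2.46% lower, and 0.00567% passed the adjusted threshold. In the interaction 0 members were higher and 1 lower (Xirp2) at that p, where 12% and 18.6% of all genes were. The interaction without offsets was positive for 8 of the 10 members, with a median of 0.48 against -0.05 over all genes tested, and with offsets the median of the members was -0.31 against -0.20.

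**Figure D5:**
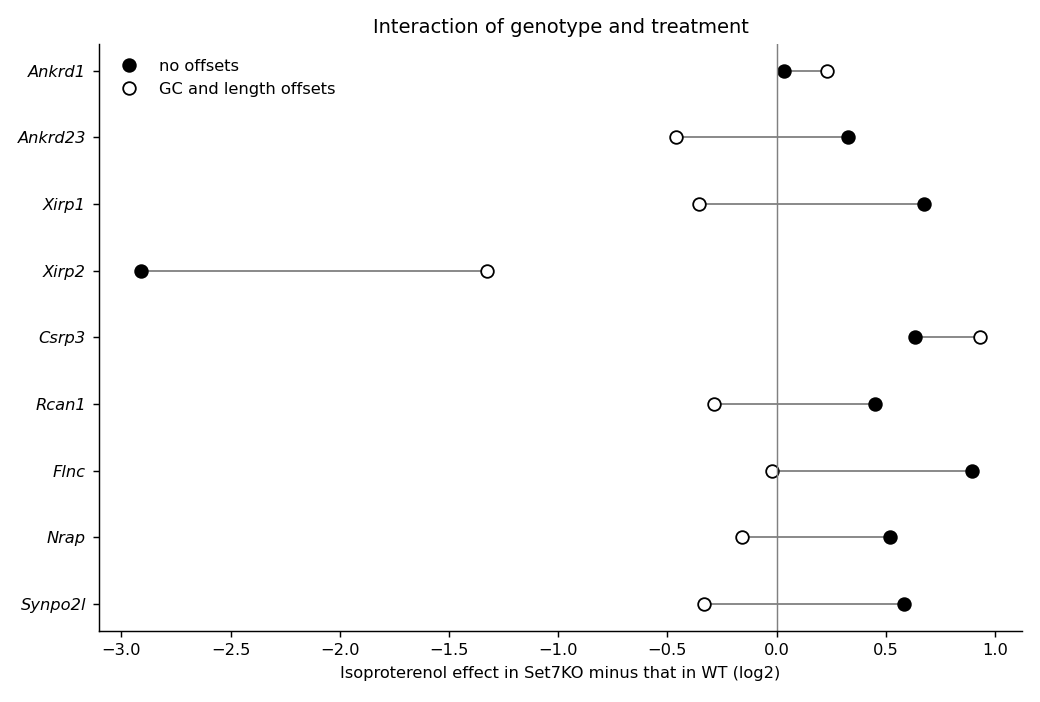
Interaction (isoproterenol effect in Set7KO minus that in WT, log2) for 9 members without offsets (filled) and with GC and length offsets (open). Ankrd23, Xirp1, Rcan1, Flnc, Nrap and Synpo2l change sign, and Xirp2 is at -2.91 without offsets and at -1.33 with them.

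Partner genes from 4 lists were read beside the members. None of 29 titin and Z-disc partners, 29 intercalated disc and costamere genes, 22 genes of calcineurin, NFAT and MEF2 signalling, or 11 measured stretch and hypertrophy genes passed the threshold in any of the 7 contrasts. In the averaged isoproterenol contrast 4 of the 29 Z-disc partners were higher and 1 lower at an unadjusted p of 0.05, where 4.5% and 4.9% of all genes were, and the median of that list was -0.02 against 0.02 over all genes tested. The smallest p among them was that of Fhl1, a LIM protein that binds titin. It stood at 447 and 214 CPM in Set7KO isoproterenol and 502 and 133 CPM in WT isoproterenol, against 70.1 and 105 CPM in Set7KO saline and 83.5 and 85.4 CPM in WT saline. As with Ankrd1, the lowest isoproterenol library was above the highest saline library, a pattern shown by 2.11% of all genes. The log2 fold change was 1.91 ± 0.42 (adjusted p = 0.193, edgeR) and 1.93 with GC and length offsets. Smpx, a small muscle protein of the costamere, and Hspb7, a small heat shock protein, followed at 0.48 ± 0.15 and 0.36 ± 0.13 (adjusted p = 0.355 and 0.438, edgeR), and at 0.26 and 0.57 with the offsets. Smpx showed the same pattern of levels, by a narrow margin (lowest isoproterenol library 187 CPM, highest saline library 182 CPM). Hspb7 differed between the genotypes, at -0.02 ± 0.19 in WT and 0.74 ± 0.19 in Set7KO without offsets.

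Without offsets, the intercalated disc list had 0 members at an unadjusted p of 0.05 in that contrast, with a median of 0.02. The stretch and hypertrophy list also had 0, with a median of -0.08. The smallest p values in the stretch and hypertrophy list were those of Uchl1, a ubiquitin hydrolase, at 0.40 ± 0.20, Serpina3n, a serine protease inhibitor, at 0.88 ± 0.45, and Acta1, skeletal alpha-actin, at -1.26 ± 0.72 (adjusted p = 0.582, 0.587 and 0.617, edgeR). With the offsets they stood at 0.63 ± 0.12, 0.94 ± 0.50 and -0.85 ± 0.70 (adjusted p = 0.149, 0.560 and 0.733, edgeR). Acta1 was at 547 and 192 CPM in Set7KO isoproterenol and 455 and 117 CPM in WT isoproterenol, against 919 and 75.9 CPM in Set7KO saline and 1044 and 1413 CPM in WT saline, so its treatments overlapped in Set7KO. The calcineurin list had 1 of 22 genes lower, where 4.9% of all genes were, and its median was 0.18. The gene was Nfatc2, an NFAT factor, at -0.62 ± 0.15 (adjusted p = 0.243, edgeR). Its highest isoproterenol level, 19.4 CPM, was below its lowest saline level, 21.2 CPM, a pattern shown by 2.01% of all genes.

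In the interaction 12% of all genes were higher and 18.6% lower at an unadjusted p of 0.05. Of the 29 Z-disc partners 5 were higher and 4 lower, and of the 29 intercalated disc genes 6 were higher and 5 lower. The calcineurin list had 1 of 22 genes higher and 5 lower, and the stretch and hypertrophy list 1 of 11 higher and 0 lower. The partner with the smallest p was Nexn, the Z-disc protein nexilin. It stood at 20.9 and 40.4 CPM in Set7KO isoproterenol, 112 and 118 CPM in WT isoproterenol, 57.7 and 175 CPM in Set7KO saline, and 31.2 and 24.3 CPM in WT saline. The interaction was -3.98 ± 0.72 (adjusted p = 0.0876, edgeR). Dmd, which encodes dystrophin, had an interaction of -2.90 ± 0.68 (adjusted p = 0.0876), with levels of 15.3 and 17.1 CPM in Set7KO isoproterenol, 52.3 and 43.7 CPM in WT isoproterenol, 15.5 and 52.9 CPM in Set7KO saline, and 14.2 and 12.9 CPM in WT saline. The 3 highest levels of both genes were in the 3 libraries with a negative GC trend. With GC and length offsets the interaction was -2.20 ± 0.52 for Nexn and -0.81 ± 0.39 for Dmd (adjusted p = 0.226 and 0.362, edgeR). Des, the intermediate filament desmin, and Itga7, the muscle laminin receptor subunit, stood at 0.90 ± 0.24 and 1.22 ± 0.34 in the interaction (adjusted p = 0.0903 and 0.0913, edgeR). With the offsets they stood at -0.08 and 0.30. From the calcineurin list, Mef2a, Mef2c and Hdac5 stood at -1.51, -1.86 and 0.97 (adjusted p = 0.101, 0.101 and 0.118, edgeR). Their values with the offsets were 0.18, 0.06 and -0.02.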

How the data were processed

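RNA from 8 mouse heart libraries was sequenced from a stranded mRNA kit with single reads of 75 cycles, per the labels' protocols. The authors deposited counts per gene, whole numbers that are not normalised; GRCm38, StringTie, edgeR, HISAT and HISAT2 appear in the submitters' processing notes, with no versions or roles. Groups came from the labels, and replicate numbers follow accession order and pair nothing; the title letter of 1 Set7KO saline library is that of the WT saline group, and its label was kept. Symbols came from GENCODE M21, which named 55227 of the 55487 identifiers, 29066 of which had a count.

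From these counts, a mean per group was fitted to all 8 libraries in edgeR 4.0.16 (R 4.3.3) with TMM sizes and its expression filter, leaving 17636 genes. Each of 7 contrasts was tested with a two-sided quasi-likelihood F-test, with Benjamini-Hochberg adjustment over all genes and 4 residual degrees of freedom. Standard errors came from the F statistic. Alternatives were size factors computed by the DESeq2 method within edgeR, no filter, 1 CPM in 2 libraries, DESeq2 1.42.0, limma-voom (limma 3.58.1), splines of GC content and length as offsets (17604 of the tested genes had both), the groups of a contrast alone, and each library left out. The procedure was also run on counts simulated for some of the contrasts. These held no GC trend and no library set apart, so that run could not test the effect of either.

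The members, lists and alternatives were chosen with earlier results of these data known; offsets with a Set7KO saline library left out, the ratios and the motifs were chosen after these levels had been seen. All 10 members are named, with up to 3 genes of the smallest p per partner list in the averaged isoproterenol contrast and in the interaction (mean of at least 2 CPM), Setd7, and the 5 genes most like Ankrd1 and Xirp2, of which 1 is not reported here.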

Additional observations from a re-analysis of the deposited data

Results flagged for a closer look

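The isoproterenol difference of Xirp2 had opposite signs in the genotypes: the isoproterenol effect in Set7KO minus that in WT was -2.91 (log2), with both Set7KO isoproterenol libraries below both Set7KO saline libraries and both WT isoproterenol libraries above both WT saline libraries. The test of the difference gave an adjusted p of 0.0876 in edgeR. The value was -1.33 with GC and length offsets, and 11% of all genes showed the same pattern of levels. The value moved when single libraries were left out, from -3.32 without WT saline replicate 1 to -2.56 without WT saline replicate 2. Set7KO saline replicate 2 lay at 61.8 on the first principal component, against -25.1 for Set7KO saline replicate 1. The value was -2.60 without Set7KO saline replicate 2 and -3.15 without Set7KO saline replicate 1. Gaps between single libraries were not screened by a rule, since groups of 2 give none.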

How the results depend on the processing

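Here "genotype" stands for Set7KO against WT and "isoproterenol" for isoproterenol against saline, values are log2 fold changes, and passing means an adjusted p under 0.05. No paired analysis was possible because replicate numbers follow accession order only. Of 1151 member values from the alternatives, 141 had another sign than the reported value, and 19 of the 70 member results kept their sign and their side of the threshold in every alternative run. Counts of genes that passed varied widely with the fit; without alternatives they numbered 9 for isoproterenol averaged over genotypes, 1 for each genotype contrast and 0 for the other 3 contrasts, and 0 members passed in any contrast. The cause of these differences was not tested, except that leaving out a library also changes the samples and genes fitted. Offsets moved the median of all genes by over 0.1 (log2) in the interaction, to -0.20 from -0.05, and by less elsewhere. With 2 libraries a group, the intervals printed are wide. A value that did not pass the threshold does not show that a difference was absent. Where a group was left with 1 library, it was assumed to vary like the others.

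In DESeq2, the genes that passed numbered 251 for averaged isoproterenol, 2719 for isoproterenol in WT, 101 for isoproterenol in Set7KO, 2 for averaged genotype, 297 for genotype after isoproterenol, 21 for genotype after saline and 2321 for interaction. Members that passed numbered 1 for averaged isoproterenol, 3 for isoproterenol in WT, 1 for genotype after isoproterenol, 1 for genotype after saline and 1 for interaction. They were Ankrd1, in WT also Xirp2 and Synpo2l, and in the other contrasts Xirp2. Signs differed for averaged genotype in Xirp2 at 0.015. With genotype after isoproterenol, signs differed in Synpo2l at 0.048.

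With no filter, the genes that passed numbered 159 for averaged isoproterenol, 1512 for isoproterenol in WT, 31 for isoproterenol in Set7KO, 2 for averaged genotype, 3 for genotype after isoproterenol, 19 for genotype after saline and 1686 for interaction. Members that passed numbered 1 for averaged isoproterenol, 2 for isoproterenol in WT and 1 for interaction. They were Ankrd1, in WT also Xirp2, and Xirp2 in the interaction. The sign differed for averaged isoproterenol in Flnc at 0.0069. For isoproterenol in WT, the sign differed in Nrap at 0.0074. Another sign was seen for averaged genotype in Xirp2 at 0.0077.

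With limma-voom, the genes that passed numbered 14 for averaged isoproterenol. In values for interaction, the sign differed in Ankrd2 at 1.72.

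With 1 CPM in 2 libraries, the genes that passed numbered 3 for isoproterenol in WT.

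With DESeq2-style size factors, the genes that passed numbered 3 for isoproterenol in WT. Signs differed for averaged genotype in Xirp2 at 0.015. With genotype after isoproterenol, signs differed in Synpo2l at 0.048.

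With the groups of the contrast alone, the genes that passed numbered 5043 for isoproterenol in WT, 1303 for genotype after isoproterenol and 0 for genotype after saline. Members that passed numbered 4 for isoproterenol in WT and 1 for genotype after isoproterenol. They were Ankrd1, Xirp2, Ankrd23 and Synpo2l in WT, and Xirp2 after isoproterenol. The sign differed for genotype after isoproterenol in Synpo2l at 0.011.

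With GC and length offsets, the genes that passed numbered 3 for isoproterenol in WT. For averaged isoproterenol, the sign differed in Csrp3 at -0.061 and Flnc at 0.17. Another sign was seen for isoproterenol in WT in Flnc at 0.18 and Nrap at 0.42. In values for averaged genotype, the sign differed in Xirp1 at 0.0092, Xirp2 at 0.19 and Rcan1 at -0.047. Signs differed for genotype after isoproterenol in Ankrd1 at 0.048, Ankrd23 at -0.51, Xirp1 at -0.17, Rcan1 at -0.19, Flnc at -0.031 and Nrap at -0.27. With genotype after saline, signs differed in Xirp1 at 0.19 and Rcan1 at 0.10. The sign differed for interaction in Ankrd23 at -0.46, Xirp1 at -0.35, Rcan1 at -0.29, Flnc at -0.019, Nrap at -0.16 and Synpo2l at -0.33.

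With offsets and without Set7KO saline replicate 1, the genes that passed numbered 1 for isoproterenol in WT, 1 for isoproterenol in Set7KO, 0 for genotype after saline and 240 for interaction. For averaged isoproterenol, the sign differed in Flnc at 0.18. Another sign was seen for isoproterenol in WT in Xirp1 at 0.00035, Flnc at 0.21 and Nrap at 0.44. In values for isoproterenol in Set7KO, the sign differed in Ankrd2 at 0. Signs differed for averaged genotype in Xirp1 at 0.19, Xirp2 at 0.12, Csrp3 at -0.13 and Rcan1 at -0.16. With genotype after isoproterenol, signs differed in Ankrd1 at 0.059, Ankrd23 at -0.52, Xirp1 at -0.19, Rcan1 at -0.19, Flnc at -0.054 and Nrap at -0.29. The sign differed for genotype after saline in Xirp1 at 0.56, Flnc at 0.0066 and Nrap at 0.053. For interaction, the sign differed in Ankrd2 at 1.79, Xirp1 at -0.75, Rcan1 at -0.060, Flnc at -0.061, Nrap at -0.34 and Synpo2l at -0.31.

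With offsets and without Set7KO saline replicate 2, the genes that passed numbered 1 for isoproterenol in WT, 1 for isoproterenol in Set7KO, 2 for averaged genotype and 1 for interaction. Another sign was seen for averaged isoproterenol in Xirp1 at 0.030, Csrp3 at -0.24 and Flnc at 0.16. In values for isoproterenol in WT, the sign differed in Flnc at 0.19 and Nrap at 0.41. Signs differed for isoproterenol in Set7KO in Xirp1 at 0.082. With averaged genotype, signs differed in Ankrd1 at 0.27, Xirp2 at 0.28 and Flnc at 0.018. The sign differed for genotype after isoproterenol in Ankrd1 at 0.093, Ankrd23 at -0.47, Xirp1 at -0.14, Rcan1 at -0.15, Flnc at -0.0053 and Nrap at -0.24. For genotype after saline, the sign differed in Ankrd1 at 0.45, Ankrd23 at 0.40, Rcan1 at 0.33 and Flnc at 0.041. Another sign was seen for interaction in Ankrd1 at -0.36, Ankrd23 at -0.86, Rcan1 at -0.47, Flnc at -0.046 and Synpo2l at -0.39.

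Ranges over the 8 fits that each leave out 1 library were as follows. For averaged isoproterenol the ranges were 0 to 42 genes that passed, 0 to 1 members that passed, -0.13 to 0.18 for Csrp3 and -0.16 to 0.15 for Flnc. For isoproterenol in WT the ranges were 0 to 3765 genes that passed, 0 to 4 members that passed, -1.17 to 0.14 for Rcan1 and -0.094 to 0.019 for Nrap. For isoproterenol in Set7KO the ranges were 0 to 486 genes that passed, 0 to 1 members that passed, -7.35 to 0 for Ankrd2, -1.25 to 0.36 for Ankrd23, -0.28 to 0.18 for Xirp1, -0.58 to 0.34 for Rcan1 and -0.56 to 0.18 for Synpo2l. For averaged genotype the ranges were 1 to 2 genes that passed, -0.60 to 0.23 for Ankrd1, -0.65 to 0.20 for Ankrd23, -0.19 to 0.21 for Xirp1, -0.18 to 0.20 for Xirp2, -0.10 to 0.24 for Csrp3, -0.22 to 0.48 for Rcan1 and -0.22 to 0.12 for Flnc. For genotype after isoproterenol the ranges were 0 to 2 genes that passed, -0.37 to 0.30 for Ankrd1, -6.00 to 0 for Ankrd2, -0.23 to 0.34 for Ankrd23, -0.031 to 0.20 for Nrap and -0.091 to 0.12 for Synpo2l. For genotype after saline the ranges were 0 to 1030 genes that passed, 0 to 1 members that passed, -1.13 to 0.50 for Ankrd1, -1.33 to 0.32 for Ankrd23, -0.70 to 0.072 for Xirp1, -0.58 to 0.046 for Csrp3 and -0.72 to 0.65 for Rcan1. For interaction the ranges were 0 to 5778 genes that passed, 0 to 3 members that passed, -0.53 to 1.06 for Ankrd1, -4.80 to 2.55 for Ankrd2, -0.25 to 1.36 for Ankrd23 and -0.33 to 0.99 for Rcan1. The members that passed were Ankrd1 averaged and in Set7KO, Xirp2 after saline, and Xirp2, Ankrd23 and Synpo2l in the interaction, all without Set7KO saline replicate 1, and in WT Ankrd1, Xirp2, Ankrd23 and Synpo2l without Set7KO saline replicate 1 or replicate 2. The highest numbers of genes came without Set7KO saline replicate 1 or 2, apart from the averaged genotype contrast and genotype after isoproterenol. A value of 0 for Ankrd2 means that both groups were at 0 counts; its other values are fitted from counts near the floor, depend on the prior count and are neither sizes nor bounds.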
